A study of Homo sapiens with 4 samples.

Results

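The interferon-stimulated genes described here are 54 genes chosen by symbol from textbook knowledge of the interferon response. The choice was made with earlier results of these data known, so shares of members set beside all genes are descriptions. All 54 were found among the 23228 gene symbols of each count file. Their read counts come from ribosome-depleted total RNA of A673 cells, a single established line of Ewing sarcoma, 48 h after siRNA was delivered with a lipid reagent. The 4 libraries form 4 groups of 1 library each. The library siSMPD1 comes from cells given siRNA against SMPD1, which encodes acid sphingomyelinase, and its scrambled-siRNA control is called control_SMPD1. The library siGPR64 comes from cells given siRNA against GPR64, an adhesion G protein-coupled receptor gene, and its scrambled-siRNA control is called control_GPR64. All 4 groups share the cell line, the medium with serum, insulin and beta-mercaptoethanol, and the transfection itself, and no untransfected cells are among the samples. Each knockdown was paired with its control as read from the titles. The sources used here do not state whether the pairs were grown or sequenced side by side. The labels name muscle as the tissue, and the muscle regulators MYOD1 and MYOG were at 0 counts in every library.

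Interferons are secreted proteins, and many of them are made when a cell senses viral or misplaced nucleic acid. They bind receptors that activate the JAK kinases, which phosphorylate transcription factors, STAT2 among them. STAT2 and IRF9 are part of a complex that binds the interferon-stimulated response element (ISRE) in the promoters of many genes. The gamma-activated site (GAS) is another element, used in the response to interferon gamma. The products of the induced genes bind foreign RNA, block viral entry or assembly, tag proteins with ISG15 and recruit leukocytes. Many of these genes also have a basal level in cells that have seen no interferon, which is set by the same factors.

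Promoter sequences are shown first for the members whose difference between the 2 scrambled controls had the interval bound furthest from equality, and for CXCL11, which was past the rule of size in siSMPD1. They are RefSeq promoters, 250 bases before to 50 bases after the gene's start, on GRCh38.p14, 5′ to 3′ along the gene's strand. Capitals mark each match to the ISRE core GAAANNGAAA or the GAS core TTCNNNGAA, searched on both strands, and overlapping matches were counted. A match on the other strand appears as the reverse complement. GBP3, a guanylate-binding GTPase gene, lies at chr1:89022817-89023116 on the minus strand. PARP14, an ADP-ribosyltransferase gene, lies at chr3:122680589-122680888 on the plus strand. DTX3L, a ubiquitin ligase gene, lies at chr3:122564088-122564387 on the plus strand. OAS3, an RNA-sensing oligoadenylate synthetase gene, lies at chr12:112938224-112938523 on the plus strand. CXCL11, a T cell chemokine gene, lies at chr4:76036021-76036320 on the minus strand.
GBP3 promoter: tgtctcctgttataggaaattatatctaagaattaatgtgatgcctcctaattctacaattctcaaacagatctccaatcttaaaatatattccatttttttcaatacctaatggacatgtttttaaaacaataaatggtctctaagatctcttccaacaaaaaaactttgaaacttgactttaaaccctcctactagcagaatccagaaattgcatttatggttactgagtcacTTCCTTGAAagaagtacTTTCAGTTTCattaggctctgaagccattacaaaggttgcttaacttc
PARP14 promoter: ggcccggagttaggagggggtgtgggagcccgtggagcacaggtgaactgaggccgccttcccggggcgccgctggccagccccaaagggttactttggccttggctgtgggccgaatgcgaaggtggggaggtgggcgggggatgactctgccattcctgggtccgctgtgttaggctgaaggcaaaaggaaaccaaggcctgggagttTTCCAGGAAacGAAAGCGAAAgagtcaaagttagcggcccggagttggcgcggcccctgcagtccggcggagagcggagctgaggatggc
DTX3L promoter: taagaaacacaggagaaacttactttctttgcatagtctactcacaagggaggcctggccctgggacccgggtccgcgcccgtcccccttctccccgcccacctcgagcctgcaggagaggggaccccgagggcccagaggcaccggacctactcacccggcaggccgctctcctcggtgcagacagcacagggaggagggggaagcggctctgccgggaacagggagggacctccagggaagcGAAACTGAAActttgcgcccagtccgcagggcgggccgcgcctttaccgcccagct
OAS3 promoter: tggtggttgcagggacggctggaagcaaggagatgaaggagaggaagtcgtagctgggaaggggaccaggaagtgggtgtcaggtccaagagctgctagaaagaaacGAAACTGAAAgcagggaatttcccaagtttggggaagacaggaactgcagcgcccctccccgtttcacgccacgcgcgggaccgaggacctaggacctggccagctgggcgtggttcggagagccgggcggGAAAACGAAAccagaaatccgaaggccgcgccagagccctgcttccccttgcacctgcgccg
CXCL11 promoter: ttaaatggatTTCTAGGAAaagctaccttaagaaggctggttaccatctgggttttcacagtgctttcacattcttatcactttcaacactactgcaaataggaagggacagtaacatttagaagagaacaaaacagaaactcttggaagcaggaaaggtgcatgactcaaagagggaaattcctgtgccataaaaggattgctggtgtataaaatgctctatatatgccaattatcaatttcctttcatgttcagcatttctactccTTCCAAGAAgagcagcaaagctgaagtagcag
The matches of 3 IFIT genes are shown because every IFIT member was lower in control_GPR64. Each run below holds 1 ISRE core match in capitals with 5 flanking bases on either side, and the number is the match's first base relative to the start site.
IFIT1 match at -116: tttagTTTCACTTTCccctt
IFIT1 match at -103: tccccTTTCGGTTTCcctag
IFIT3 match at -156: ttaggTTTCATTTTCctcct
IFIT3 match at -122: attagTTTCACTTTCcagtt
IFIT5 match at -45: ttaagTTTCGGTTTCtgaag
IFIT5 match at -19: tttagTTTCGATTTCttaag
IFIT5 match at -4: ttaagTTTCAGTTTCtgagc

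Promoters of 43 of the 54 members were matched in the RefSeq table. An ISRE core was found in 27 of them (62.8%), against 3.57% of all 34943 promoters of the same 300-base length, and 15 members held 2 or more matches. A GAS core was found in 12 members (27.9%), against 7.66% of all promoters. Of the matched members lower between the controls by the rule below, 12 of 19 held an ISRE core, as did 13 of 19 measured members that were not. The median log2 ratio between the controls was -1.13 over the 25 measured members with an ISRE core and -1.12 over the 13 without. The shares with and without a difference between the controls were thus close, and a match is a description of sequence alone.

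Levels are given in CPM, gene counts scaled to a common library size with TMM factors, and are compared between genes only per kilobase. The SMPD1 pair was the deeper one, with 19614913 gene counts for the control and 18849264 for the knockdown. The GPR64 pair held 2882854 for the control and 2534861 for the knockdown. A gene with 0 counts could thus stand at up to 0.156 and 0.159 CPM (3 counts) in the first pair and at up to 1.03 and 1.18 CPM in the second. Each group is 1 library, so the values carry no replicate error, no test was made within a pair, and a rule of size was used instead. A gene was called higher or lower when the mean of the 2 libraries was at least 1 CPM, the ratio was at least 2-fold, and the exact Clopper-Pearson 95% interval of the ratio excluded equality. That interval covers counting error and no variation between cultures, and PCR copies may make it too narrow. The targeted gene SMPD1 was at 414 CPM in its own control and 91.7 CPM after its knockdown, but at 52.8 CPM in control_GPR64, the lowest of the 4 libraries, and at 232 CPM in siGPR64. The other target, GPR64, was at 109 CPM in its own control and 50.1 CPM after its knockdown, and at 388 and 539 CPM in the control and knockdown of the SMPD1 pair. Of the 7 Ewing sarcoma markers, 6 were measured in all libraries and CD99 was listed at 0. Entries not uniquely aligned were left out by the counting, so a gene listed at 0 need not be without transcripts.

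Basal levels of the interferon-stimulated genes were mostly low. The 54 members together held 0.213% and 0.205% of gene counts in the control and knockdown of the SMPD1 pair, and 0.128% and 0.154% in those of the GPR64 pair. ADAR, which edits adenosine in double-stranded RNA, LGALS3BP, a secreted galectin-binding glycoprotein, and LY6E, a GPI-anchored membrane protein, made up 51.4% to 62.3% of these member counts. Per kilobase of exon, all 54 members were ranked against the 11408 genes that averaged 1 CPM or more over the 4 libraries. Only 44 members reached that mean themselves. The rest lay below percentile 25 in every library, which pulls the ranks of the list down. The median of all 54 stood at percentile 27.6 in control_SMPD1 and at percentile 18.6 in control_GPR64. LGALS3BP stood at percentile 97.9, LY6E at 96.0, ADAR at 91.5 and IFITM3 at 90.8 in control_SMPD1. In control_GPR64 IFITM3 stood at percentile 69.3, while LGALS3BP and LY6E stayed above 90. With members under that mean included, 27 and 28 of the 54 lay below percentile 25 in the control and knockdown of the SMPD1 pair. In those of the GPR64 pair the numbers were 37 and 30.

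**Figure D1:**
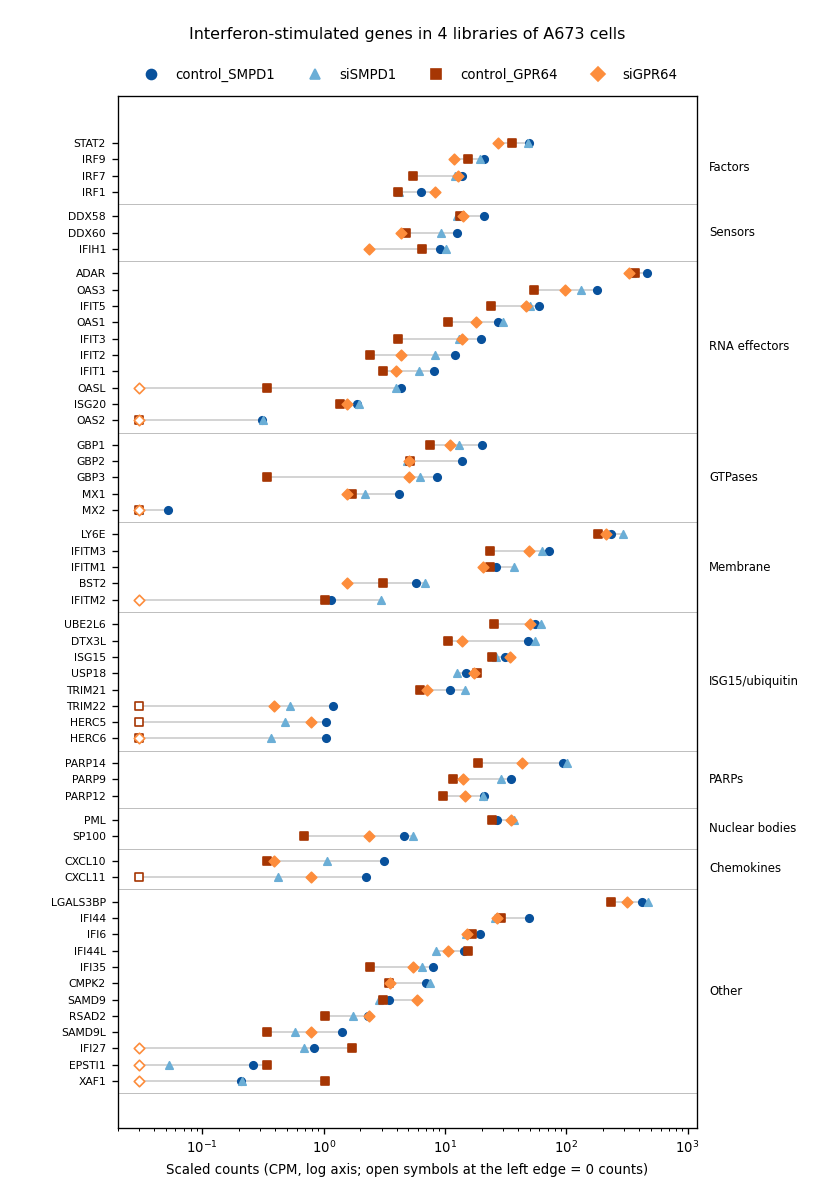
Level of each of the 54 interferon-stimulated genes in the 4 libraries, in CPM on a log axis, grouped by role. Each symbol is 1 library, open symbols at the left edge stand for 0 counts, and control_GPR64 (squares) is the lowest of the 4 libraries for 31 members while control_SMPD1 (circles) is the highest for 29.

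The first question for a baseline is whether the 2 scrambled-siRNA libraries carried the same interferon-stimulated transcripts. They did not by this rule: of 46 members averaging 1 CPM or more, 23 were lower in control_GPR64 than in control_SMPD1 (50%), none was higher, and 23 were short of the rule. Over all 12798 genes measured, 8.33% were lower and 7.02% higher (15.4% in either direction). In bulk RNA, fewer cells with a transcript and less of it per cell cannot be told apart. The member median was a log2 ratio of -1.12, where the median of all genes was -0.01. The members' quartiles were -1.60 and -0.44 and those of all genes -0.44 and 0.39. The interval lay below equality for 31 members and above it for none, against 29.4% and 27.9% of all genes. A filter on the mean lets in members through the library where they are high: 6 members passed through 1 library, and 5 of those were called. With at least 1 CPM required in both libraries, 18 of 40 members were lower and none higher, against 7.7% and 5.6% of 12234 genes, with a member median of -0.95. Within genes of 5 to 20 CPM, 11 of 19 members were lower, against 14.5% of all genes at that level. Above 20 CPM the numbers were 7 of 15 members and 5.26%.

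**Figure D2:**
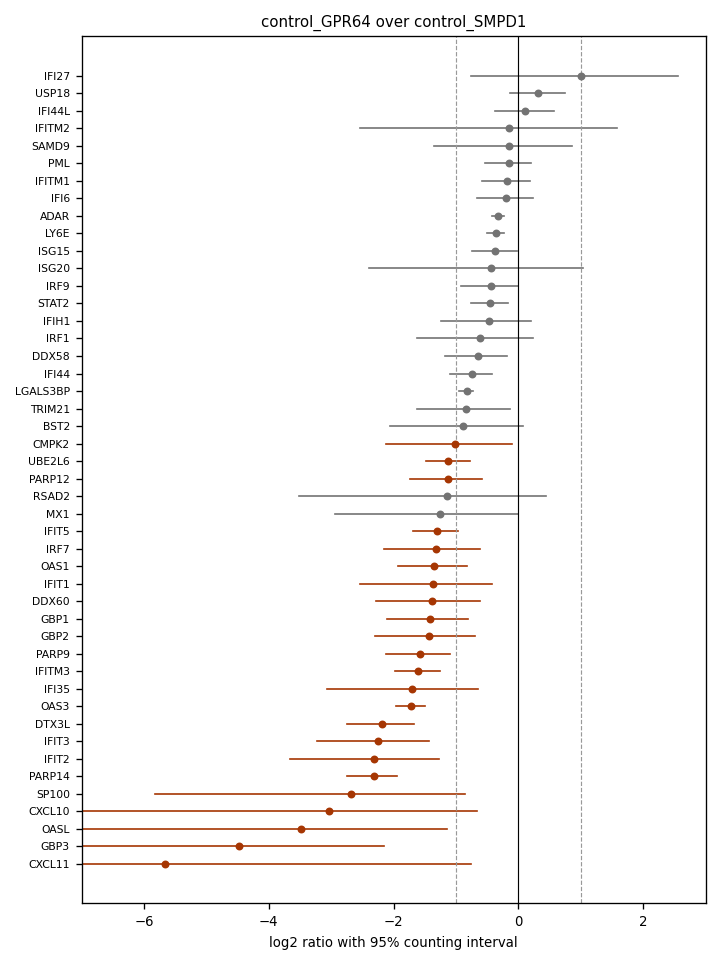
Log2 ratio of control_GPR64 over control_SMPD1 for the 46 members with a mean of at least 1 CPM, with 95% counting intervals cut at the left edge of the axis; dashed lines mark 2-fold and colour marks the 23 members past the rule. CXCL11 has 0 counts in control_GPR64, so its point depends on the prior count, and USP18, IFI44L and IFI27 are the 3 members to the right of 0.

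Among the RNA-binding effectors all 4 IFIT genes were lower in control_GPR64. Some proteins of this family bind the 5′ ends of foreign RNA and block its translation. Levels from here on are listed in the order control_SMPD1, siSMPD1, control_GPR64, siGPR64. IFIT3 stood at 19.7, 13.0, 4.11 and 13.7 CPM, so control_GPR64 was 4.75-fold below the other control (95% interval 2.71 to 9.35). IFIT2 stood at 12.1, 8.32, 2.40 and 4.31 CPM, a 4.96-fold difference between the controls (2.41 to 12.7). For both genes control_SMPD1 was the highest library and control_GPR64 the lowest. IFIT5 stood at 59.7, 50.3, 24.0 and 46.2 CPM (2.49-fold lower, 1.96 to 3.22). IFIT1 stood at 8.07, 6.09, 3.08 and 3.92 CPM (2.59-fold lower, 1.34 to 5.83), the last 2 values on 9 and 10 counts. Summed over the family, the level was 99.5, 77.7, 33.6 and 68.2 CPM, with IFIT5 the largest part, and control_GPR64 was the lowest library. The genes did not share 1 pattern. IFIT1 and IFIT2 were also lower in siGPR64 than in control_SMPD1 by the rule, 2.05-fold (1.09 to 4.38) and 2.78-fold (1.54 to 5.69). IFIT3 and IFIT5 were short of the rule there.

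The oligoadenylate synthetases make the messenger that switches on RNase L when they bind double-stranded RNA. OAS3 stood at 179, 133, 54.1 and 96.8 CPM, which made control_GPR64 3.3-fold lower than control_SMPD1 (2.81 to 3.9). OAS1 stood at 27.1, 30.0, 10.6 and 18.0 CPM (2.55-fold lower, 1.78 to 3.8). Both genes were higher in the 2 libraries of the SMPD1 pair than in either library of the GPR64 pair. OASL, a synthetase-like protein without that activity, had 83, 74, 1 and 0 counts, and was 11.3-fold lower between the controls with a wide interval (2.2 to 504). OAS2 had 6, 6, 0 and 0 counts and was not measurable. ISG20, an RNA exonuclease gene, was at 1.87, 1.96, 1.37 and 1.57 CPM, and ADAR at 462, 349, 369 and 331 CPM, both short of the rule.

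All 3 ADP-ribosyltransferase members were lower in control_GPR64, and they had the largest difference of any role group with over 100 counts in each library. Their summed level was 150.0, 152, 40.1 and 72.1 CPM, so the sum was 3.75-fold lower between the controls (3.12 to 4.55). PARP14, a macrodomain protein, stood at 94.5, 102, 18.8 and 43.5 CPM (5.0-fold lower, 3.83 to 6.68). PARP9 stood at 34.9, 28.9, 11.6 and 14.1 CPM (2.99-fold lower, 2.12 to 4.36). PARP12 stood at 21.0, 20.7, 9.59 and 14.5 CPM (2.19-fold lower, 1.49 to 3.34). In each case both libraries of the SMPD1 pair were above both of the GPR64 pair. DTX3L, the ubiquitin ligase that forms a complex with PARP9, stood at 48.3, 55.3, 10.6 and 13.7 CPM and was 4.53-fold lower between the controls (3.18 to 6.73). DTX3L and PARP9 overlap on opposite strands over 3.7% and 2.77% of their exon lengths in the GENCODE v29 annotation.

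The guanylate-binding proteins are GTPases that attack membranes of intracellular pathogens, and the MX proteins are dynamin-like GTPases that trap viral capsids. GBP1 stood at 20.2, 13.0, 7.54 and 11.0 CPM (2.67-fold lower between the controls, 1.74 to 4.33). GBP2 stood at 13.9, 4.82, 5.14 and 5.09 CPM (2.69-fold lower, 1.61 to 4.9), so control_SMPD1 was the library that stood apart and the other 3 lay close together. GBP3 had 165, 117, 1 and 13 counts, or 8.59, 6.20, 0.343 and 5.09 CPM, and the 22.3-fold difference between the controls rests on that single count (4.44 to 996). For GBP3 it was control_GPR64 that stood apart. MX1 stood at 4.16, 2.17, 1.71 and 1.57 CPM, short of the rule between the controls on 5 counts in control_GPR64, and MX2 had 1, 0, 0 and 0 counts.

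Of the signalling members, IRF7, the amplifier of interferon production, was lower between the controls. It stood at 13.8, 12.1, 5.48 and 12.9 CPM (2.5-fold lower, 1.52 to 4.47). STAT2 and IRF9, of the ISRE-binding complex, were short of the rule. STAT2 stood at 49.2, 48.4, 36.0 and 27.4 CPM (1.37-fold lower, 1.12 to 1.69) and IRF9 at 21.0, 19.4, 15.4 and 11.8 CPM (1.36-fold lower, 0.998 to 1.9). IRF1, an activator that responds to interferon gamma, stood at 6.35, 4.19, 4.11 and 8.23 CPM. Of the RNA sensors, DDX60, a helicase, was lower, at 12.5, 9.27, 4.80 and 4.31 CPM (2.6-fold, 1.53 to 4.86). DDX58, which encodes RIG-I, stood at 21.0, 12.6, 13.4 and 14.1 CPM and IFIH1, which encodes MDA5, at 9.06, 10.2, 6.51 and 2.35 CPM, both short of the rule between the controls.

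The membrane proteins block virus fusion or release. IFITM3 stood at 72.0, 63.5, 23.6 and 49.0 CPM, a 3.04-fold lower level in control_GPR64 (2.39 to 3.94). IFITM1 at 26.5, 37.0, 23.3 and 20.4 CPM, LY6E at 234, 295, 182 and 211 CPM and BST2, the tetherin gene, at 5.73, 6.89, 3.08 and 1.57 CPM were short of the rule. IFITM2 had 22, 56, 3 and 0 counts. The IFITM genes are near-identical in part: 42.3%, 15.8% and 20.3% of the 50-base stretches in the longest coding transcript of IFITM1, IFITM2 and IFITM3 also occur in another gene of GENCODE v29. Counts of these 3 genes are therefore uncertain, since entries not uniquely aligned were left out by the counting and made up 30.1% of entries in control_SMPD1 and 21.4% in control_GPR64. IFITM3 also overlaps a gene on the opposite strand over 23.7% of its exon length.

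In the ISG15 and ubiquitin group, UBE2L6, the conjugating enzyme that passes ISG15 to its targets, was lower between the controls. It stood at 55.2, 62.1, 25.3 and 49.8 CPM (2.17-fold lower, 1.72 to 2.79). ISG15 itself, the ubiquitin-like modifier, stood at 31.5, 26.1, 24.3 and 34.5 CPM (1.3-fold lower, 1.01 to 1.68). USP18, the protease that removes ISG15 and damps receptor signalling, stood at 14.9, 12.5, 18.5 and 17.2 CPM. Of 44 members averaging 1 CPM or more over the 4 libraries, USP18 alone had both SMPD1-pair levels below both GPR64-pair levels, a pattern of 24.4% of 12887 genes. The opposite pattern held for 30 members and 26.8% of genes. Of the 50-base stretches of USP18, 23.4% also occur in another gene, among them USP41. TRIM21, a cytosolic antibody receptor and ubiquitin ligase, stood at 11.0, 14.5, 6.17 and 7.05 CPM, short of the rule.

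SP100 and PML build nuclear bodies that silence incoming viral DNA. SP100 had 89, 102, 2 and 6 counts, so control_GPR64 was 6.41-fold lower (1.82 to 56.7), while PML stood at 27.0, 37.0, 24.3 and 35.3 CPM and was short of the rule. The 2 chemokines that draw T cells through CXCR3 were near the detection limit in the GPR64 pair. CXCL10 had 60, 20, 1 and 1 counts and was 8.17-fold lower between the controls (1.57 to 366). CXCL11 had 43, 8, 0 and 2 counts, which makes control_GPR64 at least 2.18-fold lower when 3 counts are taken for 0.

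Among the other induced genes, IFI35 and CMPK2 were lower in control_GPR64. IFI35, an adaptor protein, stood at 7.96, 6.41, 2.40 and 5.48 CPM (3.28-fold lower, 1.57 to 8.4). CMPK2, a mitochondrial nucleotide kinase, stood at 6.97, 7.47, 3.43 and 3.53 CPM (2.02-fold lower, 1.07 to 4.34) and lies at the edge of the rule. LGALS3BP stood at 419, 468, 235 and 319 CPM (1.78-fold lower, 1.65 to 1.93) and IFI44 at 49.0, 25.8, 29.1 and 26.6 CPM (1.68-fold lower, 1.35 to 2.13). IFI6, an inhibitor of apoptosis in mitochondria, stood at 19.3, 15.0, 16.8 and 15.3 CPM and IFI44L at 14.3, 8.37, 15.4 and 10.6 CPM. SAMD9 at 3.44, 2.86, 3.08 and 5.88 CPM and RSAD2, the antiviral enzyme viperin, at 2.34, 1.75, 1.03 and 2.35 CPM had few counts in the GPR64 pair. The members did not all differ between the controls by a like amount: IFI6, IFI44L, USP18, PML and ISG15, singled out after their values were seen, were within 1.3-fold.

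Just inside the 2-fold edge between the controls were CMPK2 at a log2 ratio of -1.02, UBE2L6 at -1.12 and PARP12 at -1.13. Just outside were BST2 at -0.88, TRIM21 at -0.84 and LGALS3BP at -0.83. MX1 at -1.26 and RSAD2 at -1.15 were past 2-fold with intervals that reached equality. The 8 members under 1 CPM on average in this comparison were MX2, OAS2, XAF1, SAMD9L, HERC5, HERC6, TRIM22 and EPSTI1. HERC5, the ISG15 ligase gene, and HERC6, of the same family, had 20 counts each in control_SMPD1 and 0 in control_GPR64, and TRIM22 had 23 and 0. SAMD9L had 27 counts in control_SMPD1 and 1 in control_GPR64.

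Other properties of the 2 controls also differed, and their part in these differences was not tested. Besides the difference in depth, 23 members in control_GPR64 and 20 in siGPR64 had fewer than 10 counts, against 4 in control_SMPD1 and 7 in siSMPD1. Fibroblast markers summed to 473 CPM in control_GPR64 and to 1050.0 CPM in control_SMPD1, but they did not share a direction. Of 5 measured, COL1A2 and THY1 were lower and DCN higher in control_GPR64 by the rule. COL1A1 (23.0 CPM in control_SMPD1 and 34.3 CPM in control_GPR64) and PDGFRB (52.0 and 76.0 CPM) were also higher, short of the rule. Of 6 leukocyte markers, CD68, a lysosomal protein gene, was alone above 1 CPM and went from 10.2 to 2.74 CPM, while PTPRC had 3 and 0 counts and CD3E and LYZ were at 0 in all libraries. All 3 plasmacytoid dendritic cell markers were listed at 0 as well, in counts that leave out entries not uniquely aligned. Muscle, epithelial and endothelial markers were under 1 CPM in every library, with the exception of MYH3, at up to 2.03 CPM, and CDH5, at 1.57 CPM in siGPR64.

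In siSMPD1, the chemokine genes and GBP2 were lower than in the paired control and most other members were within 2-fold. Of 45 measured members, 3 were lower (6.67%) and 1 higher (2.22%), against 1.11% and 2.49% of 12749 genes (3.6% in either direction). CXCL11 passed the filter through the control alone, and with at least 1 CPM in both libraries 2 of 44 members were lower and 1 higher, against 0.913% and 1.72% of genes. The member median was a log2 ratio of -0.25, and that of all genes was 0.00. Counting intervals lay below equality for 21 members and above it for 9, where all genes gave 28.8% and 28.1%. CXCL11 went from 43 counts to 8, or from 2.24 to 0.424 CPM (5.03-fold lower, 2.45 to 13.0). CXCL10 went from 60 counts to 20, or from 3.12 to 1.06 CPM (2.9-fold lower, 1.75 to 5.16). GBP2 went from 13.9 to 4.82 CPM (2.87-fold lower, 2.26 to 3.7). The single higher member was IFITM2, at 1.15 and 2.97 CPM (2.56-fold, 1.56 to 4.46), one of the genes with shared sequence.

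Members below the control by just less than 2-fold in siSMPD1 were MX1 (1.91-fold, 1.3 to 2.87), IFI44 (1.9-fold, 1.7 to 2.12), IFI44L (1.71-fold, 1.4 to 2.09) and DDX58 (1.67-fold, 1.42 to 1.97). GBP1 stood 1.55-fold below the control (1.32 to 1.83), IFIT3 1.51-fold (1.29 to 1.79), IRF1 1.51-fold (1.13 to 2.04) and IFIT2 1.45-fold (1.18 to 1.79). OAS3 at 1.35-fold (1.28 to 1.42) and ADAR at 1.33-fold (1.28 to 1.37) had narrow intervals on many counts. On the other side, IFITM1 stood 1.39-fold above the control (1.24 to 1.56), PML 1.37-fold (1.22 to 1.54), TRIM21 1.32-fold (1.1 to 1.58) and LY6E 1.26-fold (1.21 to 1.31). The sum of the 3 ADP-ribosyltransferases differed by 1.01-fold (0.956 to 1.06).

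HERC5, HERC6 and TRIM22 were under 1 CPM on average in this pair, so the rule does not reach them. Their counts in control_SMPD1 and siSMPD1 were 20 and 9, 20 and 7, and 23 and 10. Summed, these 3 genes were 2.35-fold lower in siSMPD1 (1.49 to 3.92), and they were grouped after their values were seen. SAMD9L had 27 and 11 counts (2.35-fold lower, 1.16 to 5.39). IFI27, XAF1, OAS2, EPSTI1 and MX2 had at most 16 counts in either library.

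The same siSMPD1 library set against control_GPR64 gave the opposite picture. Of 44 measured members 19 were higher (43.2%) and none lower, against 10.5% and 8.02% of all genes (18.5% in either direction), with a median log2 ratio of 0.96. Of these, 4 members passed the filter through 1 library, 3 of them called, and with at least 1 CPM in both libraries 16 of 40 were higher, against 9.59% of genes. GBP2 was then at -0.09, IFITM2 at 1.49 on 3 control counts, and CXCL10 and CXCL11 averaged under 1 CPM, on 1 and 0 control counts. PARP14 was at 2.43 and DTX3L at 2.38. The direction of the list in siSMPD1 therefore depended on the control library, and these values share that control with the comparison of controls above.

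**Figure D3:**
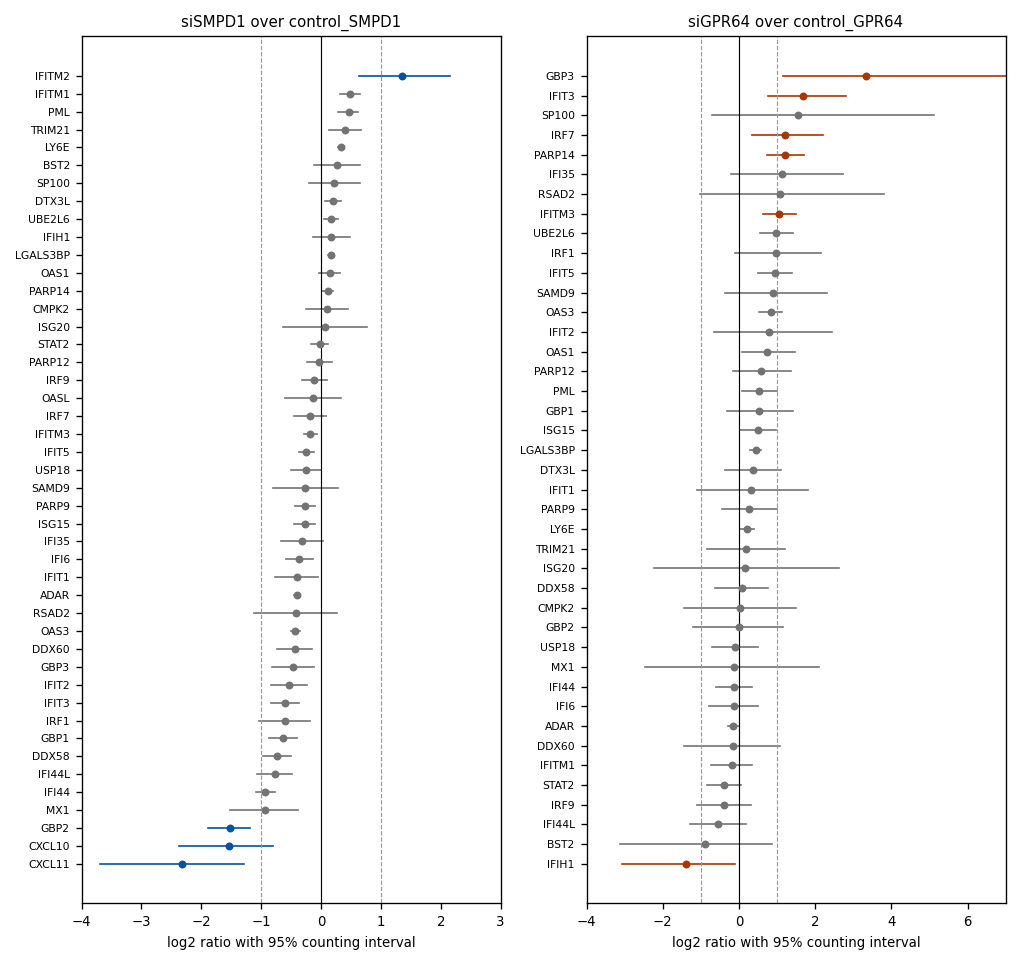
Log2 ratio of each knockdown library over its paired control for members with a mean of at least 1 CPM, 45 in the SMPD1 pair (left) and 41 in the GPR64 pair (right), with 95% counting intervals and dashed lines at 2-fold. Coloured points passed the rule; intervals are wider in the GPR64 pair, and GBP3's runs beyond the axis.

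In siGPR64, 5 members were higher than in the paired control and 1 was lower. Of 41 measured members this was 12.2% and 2.44%, against 6.56% and 5.18% of 12830 genes (11.7% in either direction), with a member median of 0.36 and an all-gene median of 0.01. GBP3 passed the filter through siGPR64 alone, and with at least 1 CPM in both libraries 4 of 39 members were higher and 1 lower, against 6.02% and 4.64% of genes. By level, 1 of 13 members at 1 to 5 CPM was higher, against 9.17% of genes, 2 of 15 at 5 to 20 CPM, against 13.0%, and 2 of 13 above 20 CPM, against 3.88%. Below 20 CPM the members' share was thus near that of all genes. Counting intervals lay above equality for 13 members and below it for 2, where all genes gave 22.2% and 20.2%. IFIT3 went from 12 counts to 35, or from 4.11 to 13.7 CPM (3.24-fold higher, 1.69 to 7.06). PARP14 went from 18.8 to 43.5 CPM (2.3-fold, 1.66 to 3.25). IRF7 went from 5.48 to 12.9 CPM (2.31-fold, 1.26 to 4.59) and IFITM3 from 23.6 to 49.0 CPM (2.06-fold, 1.53 to 2.82). GBP3 went from 1 count to 13 (10.0-fold, 2.23 to 632). IFIH1, the MDA5 gene, was lower, on 19 counts and 6 (2.64-fold, 1.06 to 8.47).

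Another 8 members stood above the control by less than 2-fold in siGPR64 with intervals above equality. UBE2L6 stood 1.96-fold above (1.46 to 2.65), IFIT5 1.92-fold (1.42 to 2.63), OAS3 1.79-fold (1.46 to 2.2) and OAS1 1.69-fold (1.05 to 2.77). LGALS3BP stood 1.36-fold above (1.22 to 1.5), PML 1.45-fold (1.05 to 2.01), ISG15 1.41-fold (1.03 to 1.97) and LY6E 1.16-fold (1.03 to 1.31). The IFIT family summed to 33.6 CPM in control_GPR64 and 68.2 CPM in siGPR64, 2.02-fold higher (1.58 to 2.63), with IFIT5 the largest part. Within the family, IFIT1 at 1.26-fold (0.464 to 3.53) and IFIT2 at 1.74-fold (0.636 to 5.47) had intervals that included equality. IFI35 at 2.2-fold (0.864 to 6.7) and RSAD2 at 2.09-fold (0.488 to 14.1) passed 2-fold with intervals that included equality. ADAR stood 1.11-fold below (1.02 to 1.22), and STAT2 (1.31-fold below, 0.96 to 1.8) and IRF9 (1.31-fold below, 0.808 to 2.16) had intervals that included equality. The 13 members under 1 CPM on average here included CXCL10, CXCL11, OASL and IFITM2, which had at most 3 counts in either library, and IFI27, with 5 counts and 0.

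Markers of other cell types also differed in this pair, and their part was not tested. CD68 was higher by the rule, from 2.74 to 7.05 CPM, on 8 and 18 counts. Of 5 measured fibroblast markers 3 were higher and 1 lower by the rule, against 6.56% and 5.18% of all genes. COL1A1 went from 34.3 to 75.2 CPM, THY1 from 159 to 324 CPM and COL1A2 from 585 counts to 1129. DCN was the lower one, from 12 counts to 2, and PDGFRB went from 76.0 to 55.6 CPM, short of the rule. PTPRC, CD3E and LYZ were at 0 in both libraries.

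This comparison and the one between the controls share control_GPR64, so the values are given side by side and no overlap is read. The level of PARP14 in siGPR64 was 2.3-fold above control_GPR64, which was itself 5.0-fold below control_SMPD1. Set against control_SMPD1, siGPR64 had none of 45 measured members higher and 11 lower (24.4%), against 6.18% and 5.25% of all genes (11.4% in either direction), with a median of -0.64. With at least 1 CPM in both libraries 9 of 41 were lower, against 4.9% of genes, since OASL, SAMD9L, CXCL10 and CXCL11 passed the filter through 1 library. IFIT3 was then at a log2 ratio of -0.52, IFITM3 at -0.56, IRF7 at -0.09, PARP14 at -1.12 and GBP3 at -0.75. IFIH1 was lower than both controls, at -1.40 and -1.93.

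**Figure D4:**
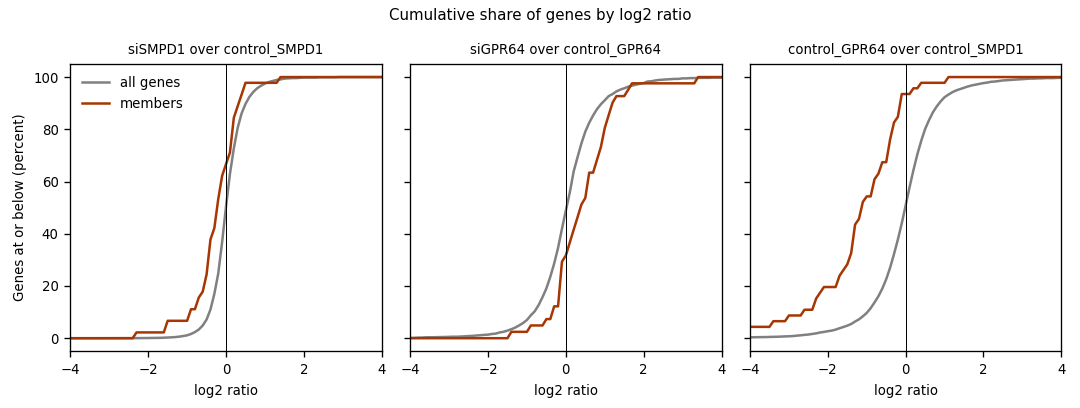
Percent of members (brown) and of all measured genes (grey) at or below each log2 ratio in the 2 knockdown pairs and between the controls. The member curve lies slightly left of all genes in siSMPD1, right in siGPR64 and furthest left between the controls, where the medians are -0.25, 0.36 and -1.12.

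The 2 knockdown comparisons share no library. Of 41 members measured in both, 10 were below and 11 above equality in both, 17 were below in siSMPD1 and above in siGPR64, and 3 the other way round. Over 12386 genes the same numbers were 3299, 3362, 2979 and 2746. Pearson's r of the 2 log2 ratios was -0.06 across these 41 genes and 0.14 across 12386 genes, as a description across genes that are not independent replicates. GBP2, CXCL10 and CXCL11, the members lower in siSMPD1, had 15 and 13, 1 and 1, and 0 and 2 counts in control_GPR64 and siGPR64. Whether the chemokines differed in the GPR64 pair was not detectable at this depth.

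The 2 knockdown libraries also allow the pairs to be set against each other without either control, a comparison chosen after the data were seen. These libraries also differ in the gene knocked down, so a difference between the pairs and an effect of either knockdown cannot be told apart. In siGPR64 against siSMPD1, 11 of 43 measured members were lower (25.6%) and 1 higher, against 6.35% and 5.96% of all genes (12.3% in either direction), with a median of -0.46. IFITM2 and OASL passed the filter through siSMPD1 alone, and with at least 1 CPM in both libraries 9 of 41 were lower and 1 higher, against 5.86% and 5.04% of genes. Of the lower members, DTX3L stood 4.02-fold lower (2.88 to 5.82), PARP14 2.34-fold (1.93 to 2.86), PARP9 2.05-fold (1.46 to 2.96) and TRIM21 2.05-fold (1.28 to 3.53). The others had at most 11 counts in siGPR64. These were IFIH1 on 6 counts (4.29-fold, 1.96 to 12.0), BST2 on 4 counts (4.3-fold, 1.68 to 16.4), DDX60, SP100, CMPK2, OASL and IFITM2. SAMD9 was the higher one, on 54 and 15 counts. Of the 23 members lower between the controls, 7 (30.4%) were also lower between the knockdown libraries, which is 63.6% of the 11. The same shares over all genes were 25.1% and 32.8%. The PARP9, DTX3L and PARP14 difference thus appeared in both comparisons of the GPR64 pair with the SMPD1 pair. For IFIT3 (13.0 and 13.7 CPM), IRF7 (12.1 and 12.9), GBP2 (4.82 and 5.09) and IFIT5 (50.3 and 46.2) the intervals of the ratio of the knockdown libraries included equality, from 0.719 to 1.51, 0.716 to 1.54, 0.542 to 1.9 and 0.898 to 1.33.

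Other genes of the pathway were counted by role. All 12 interferon ligand genes listed, IFNB1, IFNG, the lambda genes IL28A, IL28B and IL29 and 7 others, had 0 counts in all 4 libraries. For each gene that allows up to 0.156 CPM in control_SMPD1, but up to 1.03 CPM in control_GPR64 and 1.18 CPM in siGPR64. Entries not uniquely aligned were left out of these counts, so the ligands may have lost reads, which was not tested. Receptors and kinases were expressed: 11 of 11 were measured, none passed the rule in either knockdown pair, and between the controls IL28RA, a lambda receptor chain, was lower, on 198 counts and 4 (7.31-fold, 2.89 to 27.9). Over all genes 3.6% and 11.7% passed in the SMPD1 and GPR64 pairs, and 8.33% were lower between the controls. The numbers in this list are near those shares. IFNAR1, a type I receptor chain, stood 1.49-fold below the control in siSMPD1 (1.37 to 1.62) and 1.48-fold below in siGPR64 (1.19 to 1.86).

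Of 14 measured genes of upstream sensing, 6 were lower in control_GPR64 than in control_SMPD1 and none higher, where all genes gave 8.33% and 7.02%. TLR3 and DHX58 are among the 6 on 3 counts each in control_GPR64. MB21D1, which encodes the DNA sensor cGAS, had 168, 197, 3 and 23 counts and was 8.19-fold lower between the controls (2.86 to 41.7) and 7.59-fold higher in siGPR64 than in control_GPR64 (2.65 to 45.6). DHX58, a RIG-I-like helicase, was 3.58-fold lower between the controls (1.22 to 18.3), TLR3, an endosomal sensor of double-stranded RNA, 3.39-fold (1.15 to 17.4) and IRF2 2.54-fold (1.91 to 3.45), and the others were MYD88 and TICAM1. TMEM173, which encodes the cGAS partner STING, stood at 45.4 and 46.2 CPM in the controls and was 2.61-fold lower in siGPR64 (1.86 to 3.76). Of 12 genes of the list measured in the GPR64 pair, MB21D1 was the 1 higher and TMEM173 the 1 lower. Over all genes 6.56% were higher and 5.18% lower, so these numbers are near the shares of all genes. In siSMPD1 none of the 14 passed the rule, against 3.6% of all genes, and TLR3 stood 1.77-fold below the control (1.18 to 2.72).

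Among negative regulators, SOCS1 and SOCS3, feedback inhibitors of JAK signalling, were higher in siGPR64 than in control_GPR64. That was 2 of 12 measured higher and 1 lower, against 6.56% and 5.18% of all genes. SOCS3 had 74, 105, 7 and 26 counts and was 4.02-fold higher in siGPR64 (1.8 to 11.6). SOCS1 had 28, 43, 1 and 13 counts (10.0-fold, 2.23 to 632). CYLD, a deubiquitinase, was 2.13-fold lower there (1.32 to 3.61). None of 11 measured regulators passed the rule in siSMPD1, against 3.6% of all genes. RNF125, a ubiquitin ligase, stood 1.84-fold below the control there (1.29 to 2.66). Between the controls 1 of 10 measured, NLRX1, a mitochondrial regulator of RIG-I signalling, was lower (2.48-fold, 1.24 to 5.93), against 8.33% of all genes.

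Some members are uncertain for reasons of annotation. Besides the IFITM genes and USP18, GBP1 shares 13.3% of its 50-base stretches with other genes, among them GBP3 and the pseudogene GBP1P1, while the IFIT and OAS genes share at most 3.84%. In GENCODE v29, IRF9 overlaps a read-through gene on the same strand over 93.5% of its exon length, XAF1 an opposite-strand gene over 69.9% and IRF1 opposite-strand genes over 15.3%. No source used here states the authors' annotation or strand setting, so reads of overlapping genes cannot be told apart.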

How the data were processed

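Total RNA of 4 A673 libraries, 1 per group, was sequenced as paired ends after ribosomal RNA depletion, per the labels' protocols. Named tools, per the submitters' processing notes, are TopHat2, HTSeq, SAMtools and bcl2fastq, without versions, and the build is hg19. Each deposited file gives whole-number counts by gene symbol, not normalized by the authors. The 5 HTSeq summary lines per file, 36.5% to 44.8% of entries, were left out.

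Counts were scaled with TMM factors (edgeR 4.0.16, R 4.3.3), and log2 ratios of 2 libraries used a prior of 0.5 count. The Clopper-Pearson intervals came from scipy 1.17.1. The rule of size was applied to all genes and tested on simulated counts. Exon lengths and shared stretches came from GENCODE v29 (GRCh38), another build than the files', and promoters from RefSeq (GRCh38.p14). Alternative models, by DESeq2 1.42.0 and by quasi-likelihood in edgeR, took both controls as 1 group. Every member is accounted for, and those past the rule have values in all libraries. Of each pathway list, at most 4 genes past the rule in a comparison have values, or at most 2 of the largest ratios where none passed. The members and lists were chosen with earlier results of these data known. Some values are not reported here.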

Additional observations from a re-analysis of the deposited data

How the results depend on the processing

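Between the controls, the count of 23 lower and 0 higher members and the median of -1.12 went to 18 to 27 lower, 0 higher and medians of -1.14 to -1.07 under the other scalings, filters, prior and fold threshold. Set between the knockdown libraries of the same pairs, they were 11 lower, 1 higher and a median of -0.46. In siSMPD1 (3 lower, 1 higher), the lower count was 1 with a mean CPM of at least 5, 6 with no filter, 10 at a fold threshold of 1.5 and 0 against control_GPR64. The higher count there was 0 with a mean CPM of at least 5 and 19 against control_GPR64, where the median turned from -0.25 to 0.96. In siGPR64 (5 higher, 1 lower), the higher count was 9 at a fold threshold of 1.5 and 0 against control_SMPD1. The lower count there was 0 with a mean CPM of at least 5 and 11 against control_SMPD1, where the median turned from 0.36 to -0.64. Single genes that turned against the other control were CXCL10 (1.51) and CXCL11 (3.36) in siSMPD1, on 1 and 0 control counts, and IFIT3 (-0.52), IFITM3 (-0.56), IRF7 (-0.09), PARP14 (-1.12) and GBP3 (-0.75) in siGPR64. CMPK2 fell short of 2-fold between the controls with total-count scaling and with a prior count of 2. With both controls as 1 group, edgeR's quasi-likelihood test and DESeq2 called 0 members higher and 0 lower at an adjusted p under 0.05 in siSMPD1 and in siGPR64, and 0 members had an unadjusted p under 0.05 by either tool. Over all genes, edgeR called 0 of 13664 in both, and DESeq2 1 and 0 of 17237, so 0 members is near the background. Those models have 1 residual degree of freedom, taken from 2 controls that differ in 15.4% of genes. No paired analysis was possible because each group has 1 library and the labels give no replicate numbers. Leaving out a library leaves no comparison.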
